A study of Mus musculus with 6 samples.

Results

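The 10 genes described here, Lgr5, Olfm4, Ascl2, Smoc2, Slc12a2, Cdca7, Rgmb, Tnfrsf19, Lrig1 and Prom1, are used as markers of crypt base columnar cells, the dividing stem cells of the small intestine. They were taken by symbol from the 24594 gene rows of the study, and each had 1 row. Of the 10 genes, 8 had enough counts to be tested, while Ascl2 was nearly at 0 and Tnfrsf19 had no count in any library. The study measured RNA by sequencing in mouse small-intestinal organoids, which are cultured mini-guts of epithelium with crypt-like buds and villus-like regions. Both groups were grown from single cells for 96 h and then exposed for 24 h either to NIBR-LTSi at 5 uM (3 libraries) or to the corresponding amount of its solvent DMSO (3 libraries). NIBR-LTSi blocks the LATS kinases, which in the Hippo pathway hold back the co-activators YAP and TAZ. The labels call the material a small-intestinal organoid and state no strain, genotype, sex or age, and the whole organoid, brought to single cells before lysis, gave the RNA.

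Crypt base columnar cells sit between Paneth cells at the bottom of the crypt, divide under Wnt, R-spondin, Notch and EGF signals, and feed all lineages of the epithelium. LGR5 is the R-spondin receptor that raises Wnt signalling at the surface of these cells, and ASCL2 is the transcription factor that acts downstream of Wnt to hold the stem cell state. Olfm4, Smoc2, Rgmb, Cdca7, Slc12a2 and Tnfrsf19 were picked as markers because they are enriched in Lgr5-expressing cells, while Lrig1 and Prom1 mark a wider set of crypt progenitors.

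The stretches of 250 bases before an annotated start are shown for Olfm4, the marker with the largest change. They are also shown for Lrig1 and Cdca7, which changed the other way. The sequences come from RefSeq on GRCm38.p6 and read 5′ to 3′ on the strand of the gene. For Lrig1 and Cdca7 the start used lies inside the gene span given below, so these windows reach into the gene. Capitals mark the motif matches named below.
Olfm4, chr14:80000052-80000301, plus strand: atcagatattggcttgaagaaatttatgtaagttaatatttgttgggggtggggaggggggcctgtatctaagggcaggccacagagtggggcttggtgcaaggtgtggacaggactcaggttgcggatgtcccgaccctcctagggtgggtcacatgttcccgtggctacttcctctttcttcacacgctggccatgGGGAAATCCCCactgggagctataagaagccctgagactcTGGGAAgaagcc
Lrig1, chr6:94700146-94700395, minus strand: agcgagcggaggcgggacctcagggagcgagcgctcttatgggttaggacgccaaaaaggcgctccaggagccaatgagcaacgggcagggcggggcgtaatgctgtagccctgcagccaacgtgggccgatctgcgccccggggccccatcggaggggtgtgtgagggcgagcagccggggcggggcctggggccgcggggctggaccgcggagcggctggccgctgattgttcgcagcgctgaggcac
Cdca7, chr2:72475969-72476218, plus strand: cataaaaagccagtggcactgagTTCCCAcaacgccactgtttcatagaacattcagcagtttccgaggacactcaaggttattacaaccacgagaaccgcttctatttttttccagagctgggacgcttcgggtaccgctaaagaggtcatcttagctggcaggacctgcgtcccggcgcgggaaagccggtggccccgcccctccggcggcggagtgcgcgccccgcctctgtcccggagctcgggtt

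The RefSeq table held 11 such windows for 7 of the 10 markers, and Lgr5, Smoc2 and Slc12a2 had no entry. Each window was searched on both strands for TEAD (CATTCC), TCF/LEF (CTTTGA), AP-1 (TGANTCA), the E-box bound by ASCL2 (CAGCTG), the core of the Notch effector RBPJ (TGGGAA), the TATA box (TATAAA) and the NF-kB consensus. The Olfm4 window held an NF-kB match that reads on both strands, with its plus-strand copy beginning 52 bases before the start, and an RBPJ core at 12 bases. Over all 32851 promoter windows of the same length, 3.9% held the NF-kB consensus and 21.6% the RBPJ core. Of the 11 marker windows 1 held the NF-kB consensus and 3 the RBPJ core (those of Olfm4 and Cdca7 and 1 of Prom1). The Cdca7 window held an RBPJ core at 227 bases, and the Lrig1 window held none of the 7 motifs. The TEAD letters were in 0 of the 11 windows and in 12.6% of all promoters, and the TCF/LEF letters were in 1 (the start of Tnfrsf19 at chr14:61037988-61038237) against 13.8%. An AP-1 match stood in both Prom1 windows, and 6.75% of all promoters held one. The E-box was in 1 of the 11 windows, the same window of Tnfrsf19, against 13% of all promoters. The TATA box was in 2 overlapping windows of Rgmb, against 12.4%. The Olfm4 window had 54% G and C and 4 CpG dinucleotides, the Cdca7 window 59.2% and 21, and the Lrig1 window 71.6% and 26, where the medians over all promoters were 52.4% and 6.

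The 6 libraries had total counts between 18395427 and 26767043. Whether the replicates came from separate cultures is not in the labels, so the p-values reflect the spread among these libraries alone, and that spread may be technical. The epithelial genes Epcam, Vil1, Cdx2 and Cdh1 were all expressed, with a summed level of 3478 to 3531 CPM (read counts scaled to library size with TMM factors) with DMSO and 3177 to 3286 CPM with NIBR-LTSi; Vil1 fell (-0.39 on the log2 scale) and Cdh1 was not called (0.10, adjusted p = 0.0559), though it was in 5 of the 15 alternative settings (adjusted p 0.00607 to 0.218). The stromal, immune and endothelial genes Col1a1, Col1a2, Pdgfra, Ptprc and Pecam1 together stayed below 1 CPM in every library (0.611 to 0.897 CPM in DMSO and 0.219 to 0.614 CPM in NIBR-LTSi libraries), and of these only Pecam1 could be tested (-0.90, adjusted p = 0.0833; called without NIBR-LTSi replicate 2, 0.0412). Over all 12592 tested genes, 42.0% were called at an adjusted p under 0.05, 22.8% higher and 19.2% lower with NIBR-LTSi.

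The stem cell markers did not move as a block. With NIBR-LTSi, Slc12a2, Cdca7, Lrig1 and Smoc2 rose by 1.38-fold to 1.15-fold, Olfm4 and Lgr5 fell by 1.96-fold and 1.62-fold, and Rgmb and Prom1 were not called. Of 8 tested markers 4 were higher (22.8% of all genes) and 2 lower (19.2% of all genes), and their median log2 fold change was 0.06, beside 0.02 over all tested genes. In each of the 8 the 3 libraries of a group lay apart from the 3 of the other, which was also so for 52.5% of all tested genes. In RNA from whole organoids, fewer cells of a type and less RNA per cell cannot be told apart, nor more cells and more RNA per cell. Adjusted p-values below are from the edgeR quasi-likelihood test with Benjamini-Hochberg adjustment over all tested genes, fold changes on the log2 scale compare NIBR-LTSi with DMSO and carry their standard error (SE), and levels are mean ± SD over 3 libraries.

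**Figure D1:**
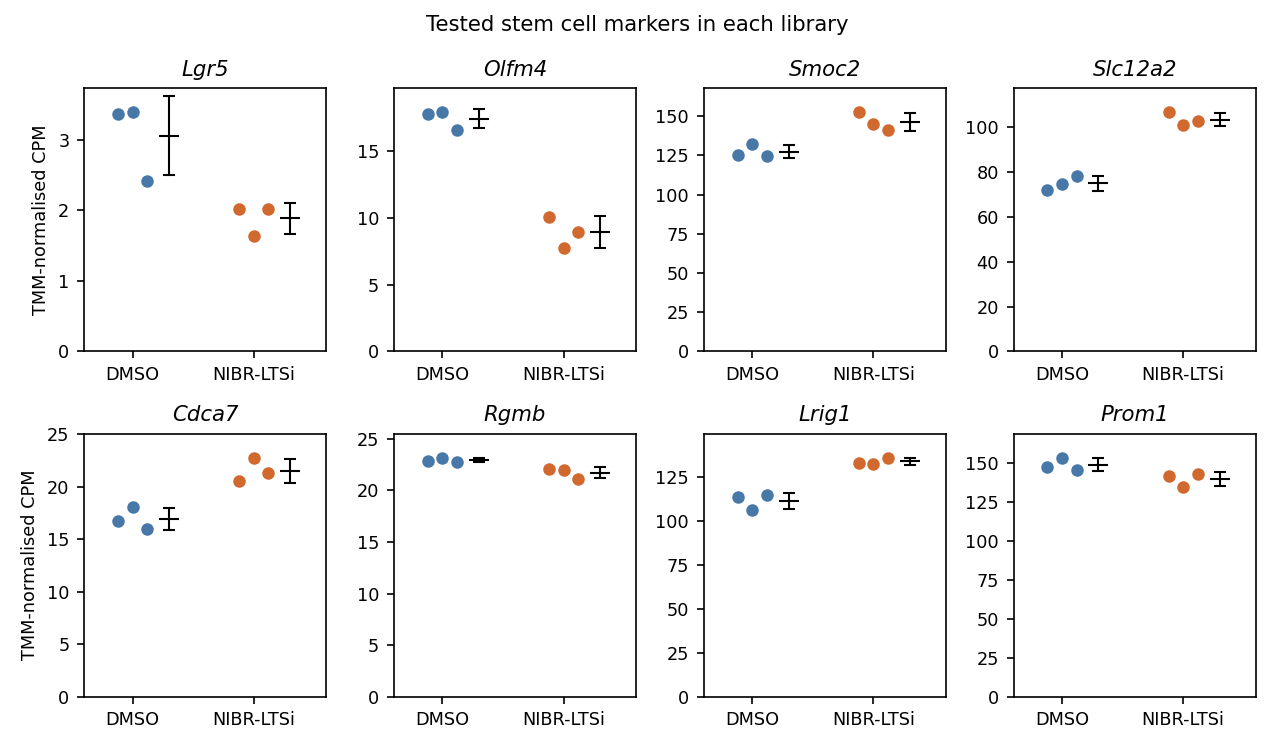
TMM-normalised CPM of each tested stem cell marker (vertical axis from 0, a scale of its own per gene) in the 3 DMSO libraries (blue) and the 3 NIBR-LTSi libraries (orange), in replicate order, with the mean and SD in black. Olfm4 and Lgr5 are lower with NIBR-LTSi (8.96 against 17.5 and 1.89 against 3.05 CPM), Slc12a2, Cdca7, Lrig1 and Smoc2 are higher, and Rgmb and Prom1 differ little.

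Among the receptors, Lgr5 (Entrez 14160, chromosome 10, 115450314 to 115587780) was the weakest of the tested markers, with 84, 61 and 51 reads in the DMSO libraries and 39, 40 and 55 reads in those with NIBR-LTSi, in replicate order. Lgr5 thus stood at 3.36, 3.39 and 2.41 CPM with DMSO and 2.01, 1.64 and 2.01 CPM with NIBR-LTSi. DMSO replicate 3 lay between the other DMSO libraries and the NIBR-LTSi libraries, and the groups did not overlap. The log2 fold change of Lgr5 was -0.69 ± 0.20 (SE; adjusted p = 0.0170), with an approximate 95% interval from -1.14 to -0.25. The spread between DMSO libraries was 18.3% of the mean, and counting alone gives 12.4% at this depth. Lgr5 was no longer called when DMSO replicate 1 was left out (log2 fold change -0.62, adjusted p = 0.0831), nor when DMSO replicate 2 (-0.62, 0.0636) or NIBR-LTSi replicate 2 (-0.61, 0.0662) was.

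Tnfrsf19 (Entrez 29820, chromosome 14, 60963834 to 61046855), which encodes the TNF-receptor family member TROY, a Wnt target that associates with LGR5, had 0 counts in all 6 libraries. In a single library a count of 0 allows up to 3 counts, which is 0.110 to 0.167 CPM here. Over all 6 libraries there were 0 of 135174093 counts, so a level shared by all of them would lie lower still. A low level could have been missed, and no fold can be given.

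Of the secreted markers, Olfm4 (Entrez 380924, chromosome 14, 80000302 to 80023141), the glycoprotein olfactomedin-4, was at 17.8, 17.9 and 16.6 CPM with DMSO and at 10.1, 7.77 and 8.99 CPM with NIBR-LTSi. The lowest DMSO library was far above the highest NIBR-LTSi library. The log2 fold change was -0.97 ± 0.10 (adjusted p = 8.63e-06), the largest fall among the tested markers, and only 207 of the 12592 tested genes had a log2 fold change as low or lower. Its counts ranged from 190 to 444 per library. The exons of Olfm4 share 153 bases with the long noncoding gene Gm6999 on the same strand, which was not analysed here.

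Smoc2 (Entrez 64074, chromosome 17, 14279490 to 14404790), a secreted calcium-binding matricellular protein, was at 125, 132 and 125 CPM with DMSO and at 152, 145 and 141 CPM with NIBR-LTSi. All NIBR-LTSi libraries were higher, by a small margin over DMSO replicate 2. Smoc2 rose by 1.15-fold (log2 fold change 0.20 ± 0.04, adjusted p = 0.00342), the smallest called change among the markers. Thus the secreted pair moved in opposite directions, although both are used as markers of the same cells.

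Among the transcriptional regulators, Ascl2 (Entrez 17173, chromosome 7, 142966822 to 142969264) had 4, 1 and 2 counts in the DMSO libraries and 0, 2 and 2 in the NIBR-LTSi libraries. Over the groups this was 7 counts of 65137979 and 4 counts of 70036114, a ratio of 0.531 with an exact 95% interval of 0.114 to 2.09 that covers counting error only. A difference in Ascl2 was not detectable at this depth. The gene was left out of the test by the filter on low counts.

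Cdca7 (Entrez 66953, chromosome 2, 72476187 to 72486892), a MYC-responsive zinc-finger protein of the cell cycle that takes part in DNA methylation upkeep, was at 16.7, 18.1 and 16.0 CPM with DMSO and at 20.5, 22.8 and 21.3 CPM with NIBR-LTSi. The lowest NIBR-LTSi library was above the highest DMSO library, and Cdca7 rose by 1.28-fold (log2 fold change 0.35 ± 0.07, adjusted p = 0.00229). Among 8 cell-cycle genes 7 rose (among them the replication helicase genes Mcm5, 0.88, and Mcm6, 0.91, on the log2 scale) and 0 fell, beside 22.8% and 19.2% of all tested genes, and their summed level went from 407 to 445 CPM with DMSO to 644 to 724 CPM with NIBR-LTSi. The part of this in the change of Cdca7 was not tested.

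Slc12a2 (Entrez 20496, chromosome 18, 57878512 to 57946821), the sodium, potassium and chloride cotransporter NKCC1 that loads crypt cells with chloride for secretion, was at 71.8, 74.7 and 78.5 CPM with DMSO and at 107, 101 and 103 CPM with NIBR-LTSi. Every NIBR-LTSi library exceeded every DMSO library by a wide margin. The log2 fold change was 0.46 ± 0.05 (adjusted p = 1.04e-05), the largest rise among the markers.

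Lrig1 (Entrez 16206, chromosome 6, 94604529 to 94700298), a leucine-rich repeat membrane protein that restrains ERBB receptors, was at 114, 107 and 115 CPM with DMSO and at 133, 133 and 136 CPM with NIBR-LTSi. The NIBR-LTSi libraries lay close together and above all DMSO libraries, and Lrig1 rose by 1.20-fold (log2 fold change 0.26 ± 0.04, adjusted p = 4.09e-04). Its exons share 144 bases with Slc25a26 on the opposite strand. Slc25a26, a mitochondrial carrier, had 5.72 ± 0.49 CPM and 5.60 ± 0.53 CPM in DMSO and NIBR-LTSi libraries, a log2 fold change of -0.03 ± 0.12 that was not called (adjusted p = 0.875).

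Rgmb (Entrez 68799, chromosome 17, 15804661 to 15831246), a co-receptor for BMP ligands, was at 22.9, 23.2 and 22.7 CPM with DMSO and at 22.1, 21.9 and 21.1 CPM with NIBR-LTSi. The groups did not overlap, but the gap was small, and the log2 fold change of -0.08 ± 0.06 did not pass the test (adjusted p = 0.320). Its approximate 95% interval, -0.21 to 0.05, runs from a fold of 0.865 to 1.04.

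Prom1 (Entrez 19126, chromosome 5, 43993621 to 44102047), the pentaspan membrane protein CD133 of apical protrusions, was at 148, 154 and 146 CPM with DMSO and at 142, 135 and 143 CPM with NIBR-LTSi. The highest NIBR-LTSi library was just below the lowest DMSO library. The log2 fold change was -0.09 ± 0.04 (adjusted p = 0.106; 95% interval -0.18 to 0.0014), and Prom1 was called lower only after a trend with gene width was removed (-0.15, adjusted p = 0.0165). Exons of Prom1 share 424 bases with the antisense gene Gm16401, and with strandedness of the counting unknown here, reads from this pair cannot be told apart.

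**Figure D2:**
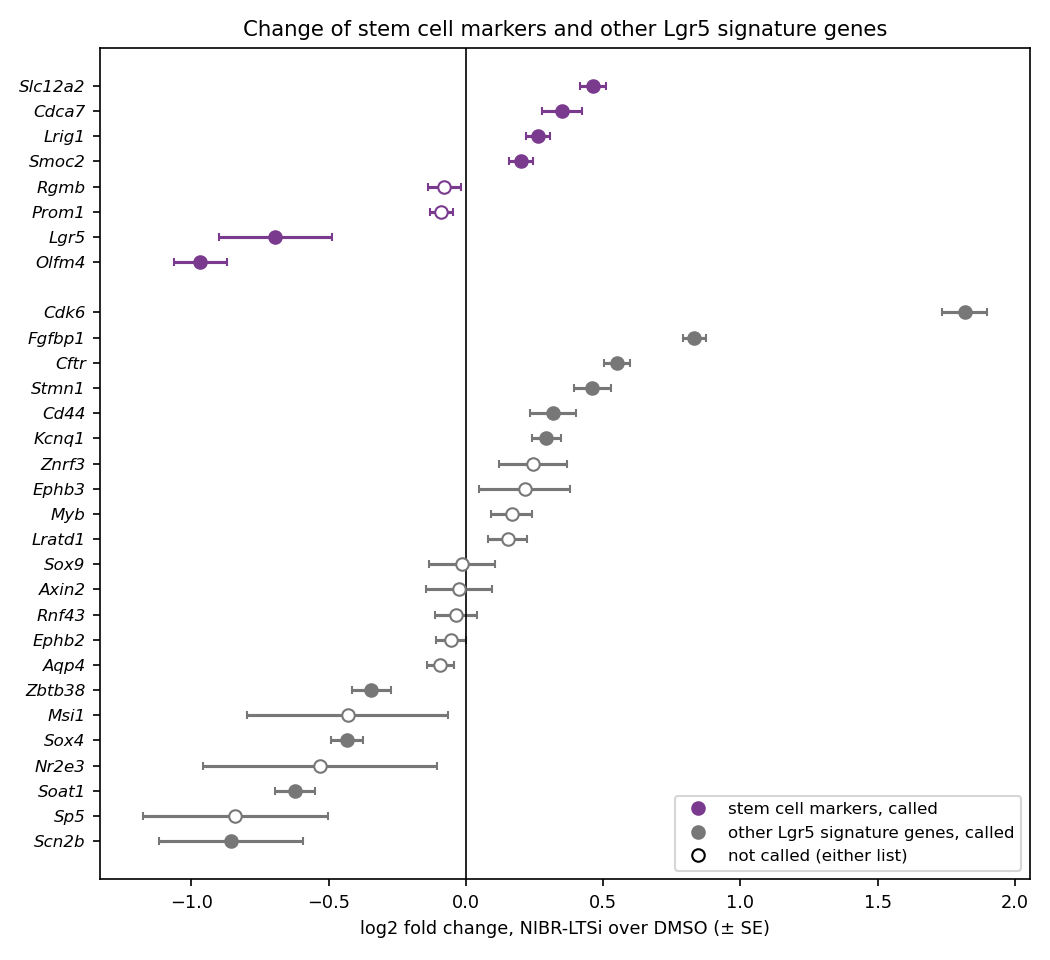
Log2 fold change, NIBR-LTSi over DMSO, with its SE (horizontal axis) for the 8 tested stem cell markers (purple, top) and the 22 tested genes of a wider Lgr5 signature (grey, bottom), with open circles for genes not called at an adjusted p of 0.05. Both lists run from falls (Olfm4 at -0.97, and the weakly expressed Scn2b at -0.86 with a wide SE) to clear rises (Slc12a2 at 0.46, Cdk6 at 1.82).

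Levels can be compared between genes only per length, here as CPM per kb of the deposited gene width. With DMSO the order of the levels was Prom1 (22.8 ± 0.6), Lrig1 (20.0 ± 0.8), Smoc2 (18.3 ± 0.6), Slc12a2 (11.5 ± 0.5), Cdca7 (5.29 ± 0.34), Olfm4 (5.02 ± 0.21), Rgmb (3.07 ± 0.03), Lgr5 (0.298 ± 0.054) and Ascl2 (0.0644 ± 0.0330), with Tnfrsf19 at 0. Each neighbour in this order lay apart in its 3 libraries except Cdca7 and Olfm4, whose libraries overlapped. Lgr5 stood 10.3 times below Rgmb, so the marker by which the cells are known was near the bottom of the tested genes, at place 11601 of 12592 by level per kb. Prom1 was at place 2461 and Olfm4 at place 6801.

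With NIBR-LTSi the order per kb was Lrig1 (24.0 ± 0.3), Prom1 (21.4 ± 0.7), Smoc2 (21.0 ± 0.8), Slc12a2 (15.9 ± 0.5), Cdca7 (6.73 ± 0.36), Rgmb (2.91 ± 0.07), Olfm4 (2.58 ± 0.34), Lgr5 (0.184 ± 0.021) and Ascl2 (0.0322 ± 0.0280). Lrig1 and Prom1 changed places, as did Olfm4 and Rgmb on this width. The libraries of Prom1 and Smoc2 overlapped, and so did those of Rgmb and Olfm4. Cdca7 and Olfm4, whose libraries overlapped with DMSO, lay apart with NIBR-LTSi.

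The order depends on the width used. The exons of the GENCODE annotation cover 10920 bases of Slc12a2, where the deposited width is 6520, and 2962 bases of Olfm4, where it is 3475. Per kb of GENCODE width, an alternative added after the data were seen, Slc12a2 stood at 6.87 ± 0.30 with DMSO and 9.47 ± 0.27 with NIBR-LTSi, still in the fourth place of both orders. Olfm4 then stood above Cdca7 with DMSO (5.89 ± 0.24 and 5.29 ± 0.34) and above Rgmb with NIBR-LTSi (3.03 ± 0.40 and 2.83 ± 0.07), with overlapping libraries in both cases. Prom1 and Lrig1 overlapped with DMSO on this width (20.8 ± 0.6 and 20.0 ± 0.8), and with NIBR-LTSi Prom1 (19.5 ± 0.6) came after Smoc2.

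**Figure D3:**
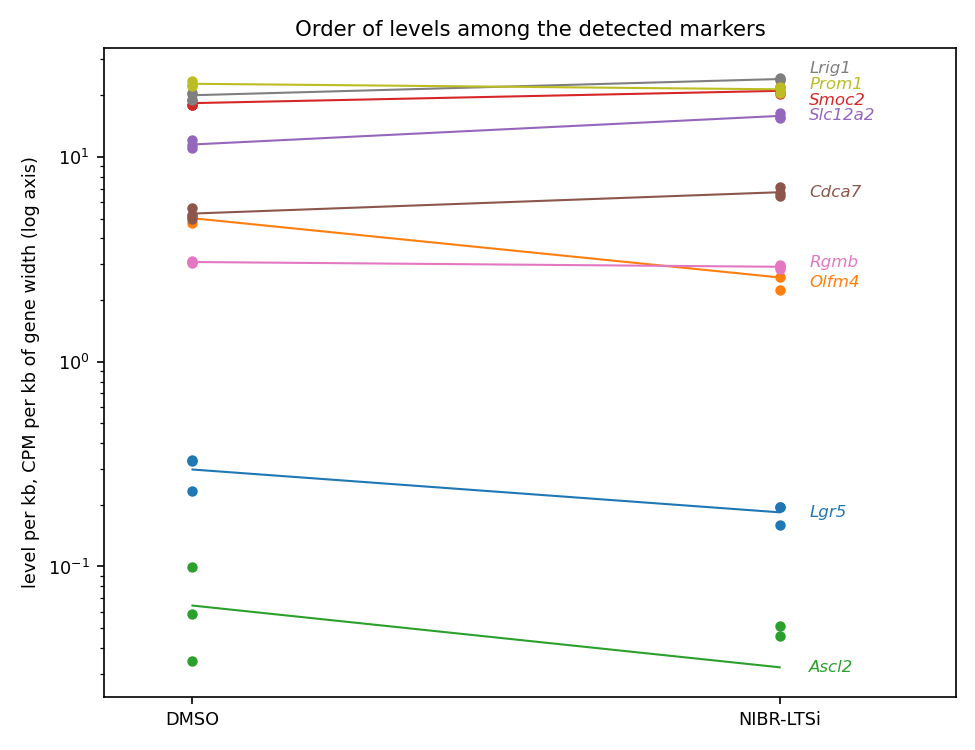
Level per kb of gene width (log axis) of the 9 detected markers in the DMSO libraries (left) and the NIBR-LTSi libraries (right), with points for libraries and lines between group means. Olfm4 drops from beside Cdca7 (5.02 and 5.29) to beside Rgmb (2.58 and 2.91), and Ascl2, whose NIBR-LTSi replicate 1 is at 0 and so not drawn, lies lowest.

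Ratios of markers within a library do not depend on the scaling between libraries. The ratio per kb of Lgr5 to Slc12a2 was 0.0298, 0.0288 and 0.0195 in the DMSO libraries and 0.0120, 0.0103 and 0.0124 in the NIBR-LTSi libraries. The groups stood apart, with means of 0.0260 ± 0.0057 and 0.0116 ± 0.0011 (0.0436 ± 0.0095 and 0.0194 ± 0.0019 with the GENCODE width). Lgr5 was lower and Slc12a2 higher in every NIBR-LTSi library than in any DMSO library, so this ratio could not overlap. The ratio of Olfm4 to Lgr5 was 15.6, 15.6 and 20.4 with DMSO and 14.8, 14.0 and 13.2 with NIBR-LTSi. Here the groups were separated only by the gap from 14.8 to 15.6, and DMSO replicate 3 was the library farthest from the rest. These ratios are descriptions and were not tested.

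Within the groups, several markers were high or low in the same library. DMSO replicate 2 was the highest DMSO library for 6 of the 8 tested markers and DMSO replicate 3 the lowest for the same 6 (Lgr5, Olfm4, Smoc2, Cdca7, Rgmb and Prom1). NIBR-LTSi replicate 1 was the highest of its group for 5 and NIBR-LTSi replicate 2 the lowest for 5. The 10 markers together took 0.0514% to 0.0518% of all counts in the DMSO libraries and 0.0580% to 0.0591% in the NIBR-LTSi libraries, and most of this share came from Prom1, Smoc2, Lrig1 and Slc12a2. For the 8 tested markers, the spread between libraries was 0.992% of the mean (Rgmb) to 18.3% (Lgr5) with DMSO. With NIBR-LTSi it was 1.42% (Lrig1) to 13.1% (Olfm4). Smoc2 and Rgmb lie 1.4 Mb apart on chromosome 17 and Olfm4 and Tnfrsf19 19 Mb apart on chromosome 14, and the other markers are on chromosomes of their own.

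Other genes used to recognise Lgr5-expressing cells also went in both directions. Of 26 such genes 22 were tested, of which 6 rose, 4 fell and 12 were not called (45.5% called, beside 42.0% of all tested genes). Their log2 fold changes had a median of -0.02. The cell-cycle kinase gene Cdk6 rose by 1.82 ± 0.08 on the log2 scale (adjusted p = 1.41e-08), from 9.00 ± 1.02 CPM in DMSO libraries to 32.0 ± 1.1 CPM in NIBR-LTSi libraries. Fgfbp1, which encodes a carrier that releases FGF from the matrix, rose from 130 ± 5 to 232 ± 7 CPM, and Cftr, the chloride channel of crypt cells, from 99.5 ± 4.1 to 146 ± 6 CPM. Stmn1, the microtubule regulator stathmin, rose from 24.5 ± 0.7 to 33.7 ± 2.5 CPM. Among those that fell, Soat1, which esterifies cholesterol, stood at 27.9 ± 1.8 CPM with DMSO and only 18.2 ± 1.3 CPM with NIBR-LTSi (-0.62 ± 0.07 on the log2 scale, adjusted p = 3.47e-05), and the transcription factor Sox4 fell from 51.3 ± 3.1 to 38.0 ± 1.0 CPM. Scn2b (-0.86) and Zbtb38 (-0.34) were the others that fell, and Cd44 (0.32) and Kcnq1 (0.29) the others that rose, on the log2 scale. The fall of Scn2b rests on only 13 to 39 counts per library (SE 0.26, adjusted p = 0.0203). Pla2g2a had 0 counts in every library, and Fstl1, Agr3 and Gkn3 were below the filter.

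Of 4 genes said to mark slow-cycling reserve stem cells 2 fell and 0 rose (50% called, beside 42.0% of all tested genes). Tert, the catalytic subunit of telomerase, had 20.9 ± 2.2 CPM with DMSO and fell to 15.6 ± 0.4 CPM, a log2 fold change of -0.43 ± 0.08 (adjusted p = 0.00127). Mex3a, whose product binds RNA, had 1.45 ± 0.43 CPM with DMSO and fell to 0.714 ± 0.206 CPM, a log2 fold change of -0.99 ± 0.32 (adjusted p = 0.0255). Leaving out DMSO replicate 3 (adjusted p = 0.129), NIBR-LTSi replicate 1 (0.0684) or NIBR-LTSi replicate 2 (0.104) ended the call of Mex3a, as did DESeq2 (0.0610). Bmi1, a Polycomb subunit, was at 21.4 ± 1.0 and 22.7 ± 1.9 CPM (adjusted p = 0.397), and Hopx, a homeodomain protein, at 40.3 ± 1.8 and 41.0 ± 1.7 CPM (adjusted p = 0.766).

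Of 5 genes for ligands that crypt base cells receive from Paneth and other secretory cells, 4 were tested, of which 1 rose and 1 fell (50% called, beside 42.0% of all tested genes). The Notch ligand gene Dll4 had 5.91 ± 0.24 CPM with DMSO and fell to 3.19 ± 0.32 CPM (-0.89 ± 0.13 on the log2 scale, adjusted p = 1.93e-04), while Dll1 rose from 56.7 ± 1.6 to 69.2 ± 2.1 CPM (0.29 ± 0.05, adjusted p = 3.99e-04). The EGF receptor ligand Tgfa was at 41.9 ± 2.6 and 38.7 ± 0.9 CPM (adjusted p = 0.144; 0.0344 after the width trend was removed). Wnt3, the Paneth cell Wnt ligand, was at 0.481 ± 0.273 and 0.887 ± 0.235 CPM (adjusted p = 0.0869; 0.0313 without DMSO replicate 2). Egf had 3 to 7 counts per library and was not tested.

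Marker genes of the other cell types of the epithelium are given by their counts of calls, to be read against the 22.8% of all tested genes that rose and the 19.2% that fell. The summed level of 6 Paneth genes was 369 to 404 CPM in DMSO libraries and 284 to 326 CPM in NIBR-LTSi libraries. Of the 6 genes 2 were higher (Mmp7, 0.67, and Ang4, 0.42, on the log2 scale). The 3 lower were Lyz1, the Paneth lysozyme, at -0.57, the lipase cofactor Clps at -1.03 and Itln1 at -0.41. Itln1, the largest part of the sum, went from 276 ± 13 CPM with DMSO to 208 ± 9 CPM with NIBR-LTSi. The Paneth sum includes Defa17, a defensin with near-identical copies, whose counts ranged from 103 to 643. Of 6 enteroendocrine genes 1 rose (Gcg, 0.63) and 3 fell (among them the granin Chgb, -0.50), with sums of 405 to 424 and 318 to 331 CPM. Of 6 tuft cell genes 2 fell (Ltc4s, -1.20, and Il17rb, -1.10) and 4 were not called, with values from -0.46 (Pou2f3) to 0.50 (Dclk1). This is 33.3% called, below the 42.0% of all tested genes. The tuft list had sums of 11.5 to 12.5 and 6.56 to 8.59 CPM. Of 6 goblet genes 2 rose (Clca1, 1.76, and Zg16, 0.41), which is 33.3% called, and 4 were not called, with values from -0.40 (Muc2) to -0.11 (Agr2). The median of the goblet list was -0.11, while its sum was 2640 to 3020 CPM in DMSO libraries and 3122 to 3435 CPM in NIBR-LTSi libraries. Clca1 alone stood at 234 ± 4 and 792 ± 4 CPM, a difference larger than that of the sum. Of 6 enterocyte genes 2 rose (Apoa1, 0.38, and Alpi, 0.29) and 3 fell (Fabp2, -0.97, Fabp1, -0.52, and Sis, -0.38). The enterocyte sums were 35010 to 36011 CPM with DMSO and 29395 to 31874 CPM with NIBR-LTSi. Of 4 tested revival genes, which mark regenerating epithelium, 4 rose (among them Anxa3, 1.71, and Clu, 0.72), with sums of 27.2 to 27.5 and 57.0 to 61.6 CPM. The summed level of the 10 stem cell markers was 519 to 530 and 568 to 589 CPM. The part of the other cell types in the changes of the stem cell markers was not tested.

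**Figure D4:**
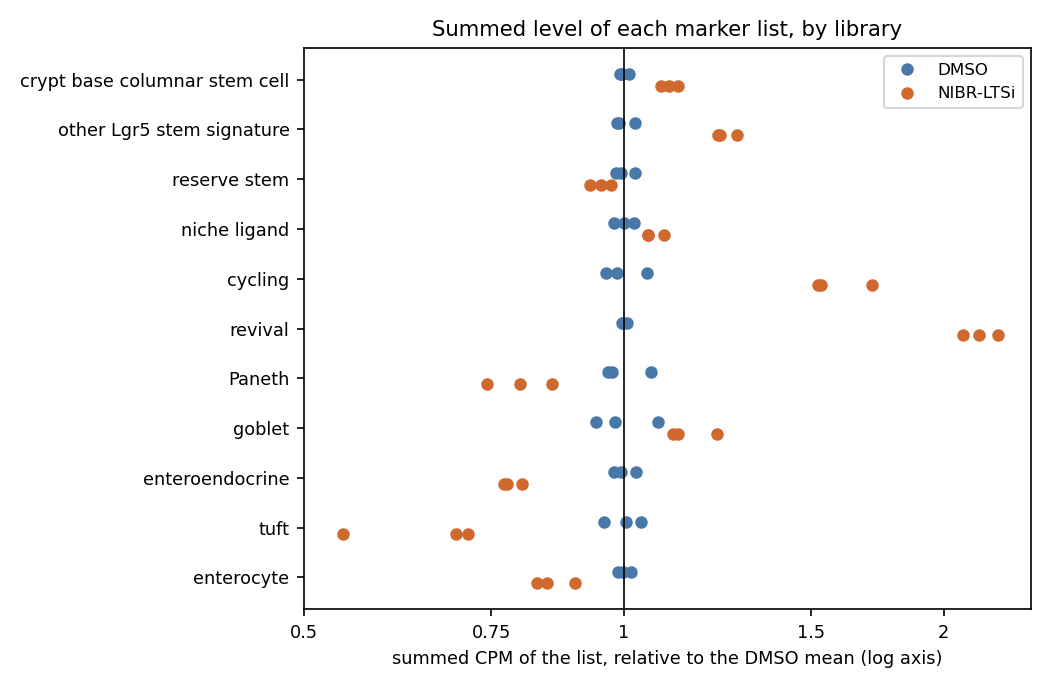
Summed CPM of each marker list in each library, divided by the mean of the DMSO libraries (log axis), for DMSO (blue) and NIBR-LTSi (orange). The sum of the 10 stem cell markers is higher with NIBR-LTSi (568 to 589 against 519 to 530 CPM), those of the cycling and revival lists are higher by more, and those of the Paneth, enteroendocrine, tuft and enterocyte lists are lower.

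The direction of each tested marker was the same under all 15 alternative settings, which changed the test, the scaling, the filter, the block or the width adjustment or left out 1 library. Slc12a2, Cdca7, Lrig1 and Smoc2 were called higher and Olfm4 lower in each of them. The log2 fold change of Olfm4 ranged from -1.06 to -0.89, that of Slc12a2 from 0.41 to 0.51, and that of Smoc2, whose adjusted p reached 0.0395 after the width adjustment, from 0.14 to 0.24.

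**Figure D5:**
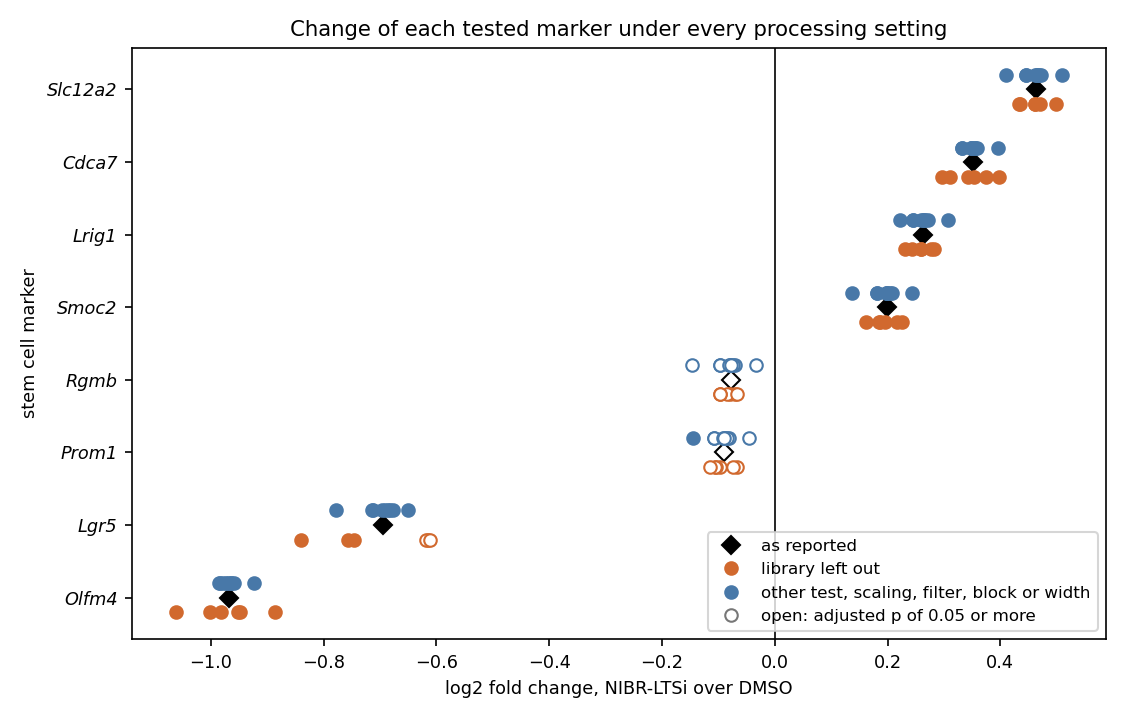
Log2 fold change, NIBR-LTSi over DMSO (horizontal axis), of each tested marker as reported (diamond) and under 15 other settings (circles, orange where a library is left out), with open symbols where the adjusted p is 0.05 or more. No marker crosses 0, Lgr5 is open in 3 of the fits that leave out a library, and Prom1 is filled only in the fit with the width trend removed.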

How the data were processed

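RNA was sequenced from 6 organoid libraries, 3 per group. Per the labels' protocols, 200 ng of total RNA per library entered a stranded messenger RNA kit. The authors deposited 1 table of raw read counts per gene with the gene width, and these counts were used unchanged. Per the submitters' processing notes the build was mm10 and edgeR was used. The aligner, counter and strandedness were not given in the sources used here. Gene positions and promoters are from RefSeq GRCm38.p6, which held 99.9% of the table's Entrez identifiers, and exon overlaps are from GENCODE on GRCm38.

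Counts were filtered with filterByExpr (12592 genes left), scaled with TMM and tested with edgeR 4.0.16 in R 4.3.3 (quasi-likelihood, robust, group as the only term, two-sided, 4 residual degrees of freedom), with Benjamini-Hochberg adjustment over all tested genes and a threshold of 0.05. The SE was calculated back from the F statistic and the 95% intervals from it, so both are approximate. The procedure was tested on simulated data in which far fewer genes changed than were called here. That test does not check the scaling under so broad a change. The alternatives were limma-voom (limma 3.58.1), DESeq2 1.42.0, other size factors and filters, a replicate block, removal of a trend with gene width, and leaving out each library. Counts of libraries in a group differed by more than sampling noise (chi-square per degree of freedom 4.46 to 11.3). The markers, lists and tests were chosen with earlier results of these data known. Named were all 10 markers, the 6 wider signature genes with the smallest p, all tested reserve and niche genes, and the 2 genes with the smallest p of each cell type list. Scn2b, Zbtb38, Cd44, Kcnq1, Pou2f3, Dclk1, Muc2, Agr2, Mmp7, Ang4, Itln1, Apoa1, Alpi and Sis were named after their values were seen. No set test was run.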

Additional observations from a re-analysis of the deposited data

How the results depend on the processing

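Of the 10 stem cell markers, 4 were called higher in each of the 15 alternatives. The number called lower was 2 in most of them, 3 after the width trend was removed, which added Prom1 (log2 fold change -0.15), and between 1 and 2 over the fits that left out 1 library, where the log2 fold change of Lgr5 ranged from -0.84 to -0.61. The median log2 fold change of the tested markers was -0.075 with no low-count filter, which lets Ascl2 into the fit at -0.89 from 11 counts, and -0.0039 after the width trend was removed, against 0.06 as reported. The wider Lgr5 signature gave 5 to 8 higher and 3 to 6 lower calls. Whether the replicate numbers pair the libraries is not in the labels. Deviations from the group means correlated at 0.05, -0.30 and 0.56 for numbers 1 to 3. For libraries of unlike number they correlated at -0.55 to 0.53. With 3 libraries per group these correlations depend on each other and cannot settle the pairing. With the replicate block, 4945 genes were called instead of 5287, Lgr5 was at -0.68 (adjusted p = 0.0298), and no call of a stem cell marker changed. Depth limits Lgr5 (330 counts in all), Ascl2 (11) and Tnfrsf19 (0).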
